A study of Mus musculus with 21 samples.

Results

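The IL-6 and IL-10 signaling axis was examined across sorted brain immune cells after traumatic brain injury (TBI) in mice. Its 10 genes were taken by symbol from the deposited gene table, and all 10 were found among 45706 gene identifiers, covering the ligands Il6, Osm, Lif and Il10, the receptor chains Il6ra, Il6st, Il10ra and Il4ra, the transcription factor Stat3 and its feedback inhibitor Socs3. TBI was induced by controlled cortical impact (CCI), in which a piston strikes the exposed cortex. WT mice (C57BL/6) and Fgg390-396A mice, which carry an altered fibrinogen γ chain that clots but lacks the motif bound by the integrin CD11b/CD18, were sampled at 1 d and 7 d post-CCI. Microglia (CD45low CD11b+) were sorted from sham controls and from both genotypes at 1 d and 7 d, and infiltrating myeloid cells (CD45hi CD11b+, labelled as macrophages) from both genotypes at 1 d. All mice were males aged 17 to 24 weeks on the C57BL/6 background. Sham mice were wildtype, with the skull opened and no impact, so that no sham group carried the mutation. Each of the 7 groups had 3 libraries, and 2 brains of the same genotype and time, chosen at random, were pooled for each library. The mutation is a germline knock-in and is not restricted to the sorted cells.

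IL-6 family cytokines bind a private receptor chain, such as IL-6Rα for IL-6, and then the shared chain gp130, the product of Il6st. Receptor-bound JAK kinases phosphorylate STAT3, which enters the nucleus and turns on its target genes, among them Socs3. SOCS3 protein binds gp130 and shuts the signal down. IL-10 also signals through STAT3, but its receptor lacks the SOCS3 docking site, and it restrains inflammatory genes in macrophages and microglia. IL-4Rα is the shared receptor chain for IL-4 and IL-13, signals mainly through STAT6, and marks alternative activation of macrophages. In the brain, resident microglia carry IL-6 and IL-10 receptors, and oncostatin M (Osm) is known as a product of neutrophils and activated monocytes.

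RefSeq promoter windows, running from 250 bases before to 50 bases after the start of a gene on GRCm38.p6, were given for 7 of the 10 genes: Il6, Lif, Il6ra, Il6st, Stat3, Socs3 and Il4ra. 4 short motifs were searched on both strands in them and in the windows of all genes, and the stretches that held a match and lay outside annotated exons are printed, since Socs3 moved with injury while Il6 and Lif are ligands of the same pathway. The Socs3 stretch lies before the RefSeq start but inside the annotated span of the gene (chr11:117966079-117970047), between its exons. Capitals mark the matches.
Socs3, chr11:117969452-117969616, - strand: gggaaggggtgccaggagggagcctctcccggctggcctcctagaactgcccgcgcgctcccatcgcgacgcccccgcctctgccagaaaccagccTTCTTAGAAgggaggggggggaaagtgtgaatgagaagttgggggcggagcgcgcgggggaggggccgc
Il6, chr5:30012864-30013113, + strand: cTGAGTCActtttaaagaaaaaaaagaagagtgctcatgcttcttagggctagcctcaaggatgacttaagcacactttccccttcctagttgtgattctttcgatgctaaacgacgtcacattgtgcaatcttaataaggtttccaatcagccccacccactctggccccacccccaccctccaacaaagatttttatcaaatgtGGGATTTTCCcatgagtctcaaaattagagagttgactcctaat
Lif, chr11:4257318-4257556, + strand: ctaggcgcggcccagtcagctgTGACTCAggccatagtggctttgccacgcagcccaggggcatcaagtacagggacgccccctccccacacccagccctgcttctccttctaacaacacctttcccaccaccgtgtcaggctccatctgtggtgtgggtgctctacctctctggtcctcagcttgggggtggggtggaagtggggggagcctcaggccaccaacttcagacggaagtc
The palindromic STAT motif TTCNNNGAA was found in the Socs3 window alone of the 7, at chr11:117969512-117969520, and in 8.30% of all 32851 promoter windows. The motif TTCNNNNGAA, the spacing known for STAT6, was in none of the 7 and in 6.95% of all. The NF-κB-type motif GGGNNTTTCC was in Il6 and Il4ra and in 1.63% of all, and the AP-1 motif TGANTCA was in Il6 and Lif and in 7.81% of all. The Il4ra match lay after the start site and is not printed. None of these motifs shares bases with another in the printed stretches.

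Levels are given as CPM, the counts scaled to a common library size, from salmon counts in which gene length is divided out, so that levels may be set side by side between genes. Libraries held 18896957 to 51875767 counts, of which 43.0 to 58.5% fell on ribosomal RNA genes. Each total was multiplied by a TMM factor, which scales libraries to each other (0.735 to 1.55). Both differed between groups. The ribosomal share was 43.4 to 47.8% in sham, 50.6, 57.9 and 58.5% in WT and 47.1 to 52.4% in Fgg microglia at 1 d. The TMM factor was 1.39 to 1.55 in sham, 1.11, 0.752 and 0.741 in WT and 0.928 to 1.29 in Fgg microglia at 1 d. The scaled totals put 3 counts at 0.0448 to 0.158 CPM, below which a gene was taken as not detectable. Genes were tested with the quasi-likelihood test of edgeR in a fit of all 21 libraries, with Benjamini-Hochberg adjustment over 23815 genes. A gene was called for injury, time and cell type when its log2 fold change was beyond 1 in either direction and its adjusted p was under 0.05, and between genotypes when the adjusted p was under 0.1. Every gene and list set against sham used the same 3 sham libraries, so the comparisons with sham are not independent of each other. Fgg itself (chr3:83007724-83015049) was listed at 0 in all 12 wildtype libraries and had 33 counts in all over the 9 libraries of mutant mice, 7 of which held any; the altered residues cannot be read from counts per gene.

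Sorting separated the populations by marker genes. The summed level of 10 microglia markers, which include P2ry12 and Tmem119, was 12263 to 13734 CPM in sham microglia, 3299 to 5322 CPM in WT microglia at 1 d, 6089 to 7804 CPM in Fgg microglia at 1 d, and 391 to 1101 CPM in infiltrating myeloid cells. The summed level of 10 monocyte and macrophage markers, which include Ccr2 and Ly6c2, was 7.78 to 30.4 CPM in sham microglia, 91.3 to 163 CPM in WT and 32.0 to 92.5 CPM in Fgg microglia at 1 d, and 1813 to 2367 CPM in infiltrating myeloid cells. The 10 neutrophil markers, which include S100a8 and S100a9, summed to 1.94 to 775 CPM across microglia libraries and to 2516 to 12997 CPM in infiltrating myeloid cells. Within microglia these sums were 1.94 to 630 CPM in sham, 123 to 775 CPM in WT and 23.1 to 338 CPM in Fgg libraries at 1 d. None of the 10 was called against sham at 1 d in either genotype. The 7 border-associated macrophage markers summed to 5.04 to 236 CPM across microglia libraries and to 1191 to 2097 CPM in infiltrating myeloid cells. No marker of these lists was at 0 in a whole group. In sorted bulk samples, a shift in the mix of cells and a change in RNA per cell cannot be told apart.

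At 1 d post-CCI, WT microglia held less receptor RNA for IL-6 and IL-10 than sham microglia and more Osm, Socs3 and the IL-4 receptor chain Il4ra. Of the 10 genes, 3 rose and 2 fell against sham. Of all genes tested 12.3% were called, 8.05% higher and 4.21% lower. For 7 of the 10 genes every library of 1 group lay beyond all libraries of the other, beside 33.8% of all genes. The median log2 fold change was 1.19 over the 10 genes and 0 over all genes tested. The largest values among the 10, 4.09 for Il10 and 3.72 for Lif, rest on few counts and lift that median.

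Il6ra (chr3:89864059-89913196), the private IL-6 receptor chain, was at 120, 136 and 141 CPM in the sham libraries and at 47.8, 40.4 and 38.2 CPM in WT microglia at 1 d. The 2 groups were far apart, and Il6ra fell by 1.65 ± 0.18 on the log2 scale (SE, n = 3 against 3, edgeR adjusted p = 3.79e-06). Il10ra (chr9:45253837-45269149), the ligand-binding chain for IL-10, was at 84.7, 70.7 and 87.3 CPM in sham and at 30.4, 19.2 and 18.3 CPM in WT microglia at 1 d. It fell by 1.84 ± 0.24 (edgeR adjusted p = 2.09e-05), again with no overlap. Il6st (chr13:112464070-112510086), which encodes gp130, was at 79.0, 96.2 and 109 CPM in sham and at 63.8, 59.2 and 62.9 CPM in WT microglia at 1 d. Its log2 difference of -0.61 ± 0.18 had an edgeR adjusted p of 0.0195 but was too small to be called. Microglia markers moved with these receptor genes: 7 of the 10 markers were called lower at 1 d and none higher, and their part in the receptor result was not tested.

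Il4ra (chr7:125552120-125579474) went the opposite way. It was at 17.1, 21.6 and 31.0 CPM in sham and at 56.6, 79.5 and 98.9 CPM in WT microglia at 1 d, so that the lowest injured library stood above the highest sham library. The log2 fold change was 1.75 ± 0.23 (edgeR adjusted p = 1.91e-05). The partner chain Il2rg, the common γ chain, rose from a mean of 2.11 to 35.6 CPM (log2 fold change 4.08 ± 0.41), and none of the other 3 tested genes of the IL-4 and IL-13 ligand and receptor list was called.

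Socs3 (chr11:117966079-117970047), whose promoter stretch with the STAT motif is printed above, was at 40.9, 3.76 and 13.2 CPM in sham libraries 1, 2 and 3. In WT microglia at 1 d it was at 53.7, 53.1 and 65.9 CPM, all above the highest sham library. Socs3 rose by a log2 fold change of 1.58 ± 0.49 (edgeR adjusted p = 0.0325). The sham libraries were widely spread for this gene, and a list of 20 genes known to respond to cell dissociation, such as immediate early genes, summed to 1707, 709 and 966 CPM in the same 3 libraries, in the same order as Socs3. The same list summed to 1429 to 1745 CPM in WT microglia at 1 d, with 5 of its genes called higher and 2 lower, and its part in the Socs3 result was not tested. Without sham library 2, Socs3 was at a log2 fold change of 1.09 and no longer called (edgeR adjusted p = 0.0655). The call was also lost without sham library 3 (adjusted p = 0.126) or without WT library 2 (0.0551) or 3 (0.0903), and without sham library 1 the log2 fold change was 2.76.

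Stat3 (chr11:100885098-100939540), the transcription factor itself, was at 51.4, 32.3 and 56.0 CPM in sham and at 53.9, 101 and 88.3 CPM in WT microglia at 1 d. 1 injured library lay within the sham range. The log2 difference was 0.80 ± 0.22 with an edgeR adjusted p of 0.0168, short of the bar on the fold change. Without that library, WT library 1, it was 1.02 (adjusted p = 0.00180) and passed the bar. Stat3 overlaps Stat5a on the opposite strand, and strand use in counting is not given in the sources used here.

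Osm (chr11:4236420-4241026), a gp130 ligand, was at 3.82, 2.73 and 6.49 CPM in sham and at 19.8, 13.1 and 12.6 CPM in WT microglia at 1 d. It rose by a log2 fold change of 1.79 ± 0.48 (edgeR adjusted p = 0.0121), with every injured library above every sham library. The call was lost without sham library 1 (adjusted p = 0.0532) or 2 (0.0677). Osm in WT microglia at 1 d stood at 10.8% of its mean level in WT infiltrating myeloid cells, while the summed monocyte and macrophage markers stood at 5.97% and the neutrophil markers at 5.69% of theirs. For Socs3 and Il4ra the same ratio was 98.7% and 129%. The part of sorted-in myeloid cells in the Osm level was not tested.

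Il6 (chr5:30013114-30019981), the ligand that names the family, did not stand higher after injury. It was at 2.42, 4.86 and 2.09 CPM in sham and at 1.91, 0.434 and 1.64 CPM in WT microglia at 1 d. The log2 difference was -1.23 with a 95% interval from -3.06 to 0.60, and the edgeR adjusted p was 0.365, although all 3 injured libraries lay below the sham libraries. Lif (chr11:4257557-4272514), another gp130 ligand, had 0, 0 and 1 counts in sham and 14, 0 and 0 counts in WT microglia at 1 d. Il10 (chr1:131019845-131024974) had 0, 0 and 1 counts in sham and 17, 1 and 0 counts in WT microglia at 1 d. Lif and Il10 were thus above 3 counts in a single WT library at 1 d, the first, which also had the highest summed neutrophil and monocyte markers of its group.

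**Figure D1:**
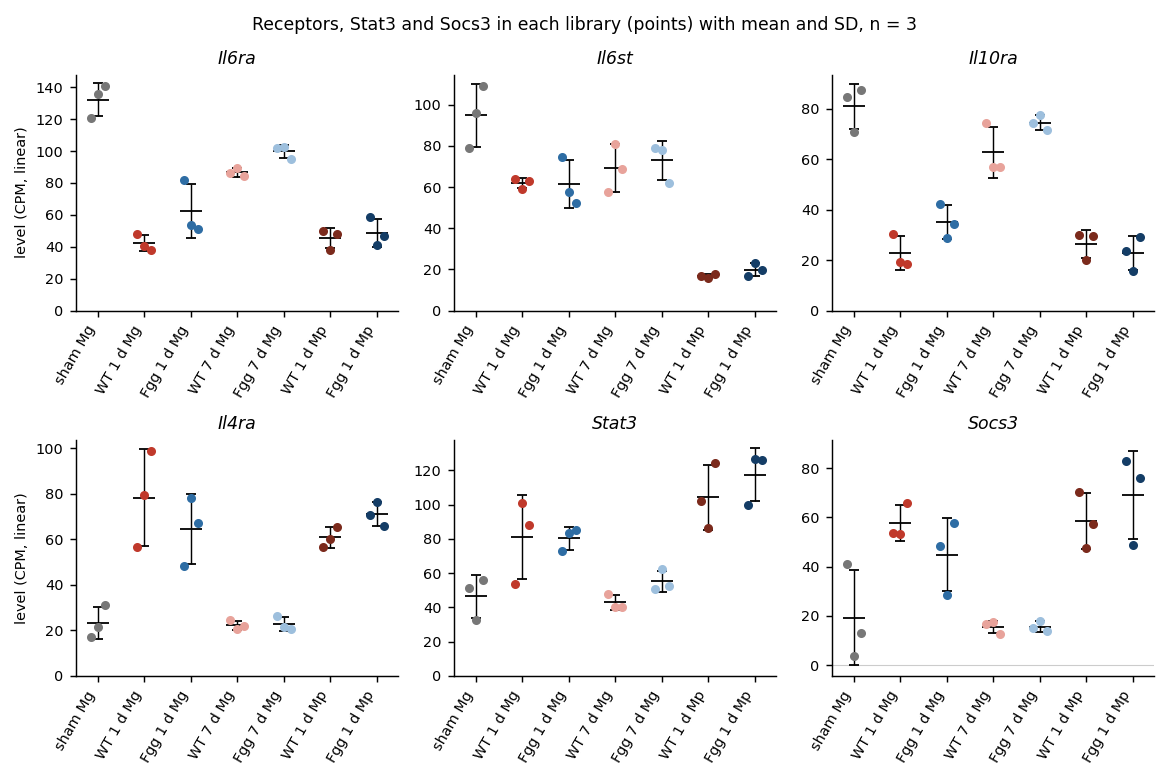
Levels of 6 genes (vertical axes, CPM on a linear scale) in each of the 7 groups (horizontal axes; Mg, microglia; Mp, infiltrating myeloid cells). Points are libraries and bars are the mean and SD of 3 libraries. Il6ra and Il10ra are lowest and Il4ra and Socs3 are highest in the 1 d groups, and Il6st is lowest in infiltrating myeloid cells.

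Fgg microglia at 1 d showed the receptor pattern with fewer calls. Against sham, 1 gene rose and 2 fell, beside 6.64% of all genes called (5.49% higher and 1.15% lower), and 5 of the 10 genes did not overlap, beside 29.0% of all genes. Il4ra was at 48.2, 78.2 and 67.1 CPM, all above the sham libraries, and rose by a log2 fold change of 1.47 ± 0.23 (edgeR adjusted p = 0.000205). Il6ra was at 81.8, 53.7 and 51.4 CPM and fell by 1.09 ± 0.18 (edgeR adjusted p = 0.000421), and Il10ra was at 42.3, 28.6 and 34.4 CPM and fell by 1.20 ± 0.24 (edgeR adjusted p = 0.00182). Both receptor genes lay below every sham library. Il6ra dropped under the fold bar without Fgg library 2 (log2 fold change -0.99) or 3 (-0.96). In these libraries 5 of 10 microglia markers were called lower, and their part in the result was not tested.

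Socs3 in Fgg microglia at 1 d was at 48.4, 28.4 and 57.7 CPM, and 1 library lay below the highest sham library. Its log2 difference from sham was 1.22 ± 0.49 (edgeR adjusted p = 0.148), and 2.40 without sham library 1 (adjusted p = 0.00117). Osm was at 6.56, 3.50 and 11.1 CPM, overlapping sham, with a log2 difference of 0.68 ± 0.47 (edgeR adjusted p = 0.438). Stat3 was at 72.7, 83.2 and 85.1 CPM, above every sham library, with a log2 difference of 0.79 ± 0.22 (edgeR adjusted p = 0.0285), short of the bar on the fold change.

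By 7 d those of the 10 genes that were called at 1 d had moved back towards sham. None of the 10 genes was called against sham in WT microglia, beside 2.02% of all genes, or in Fgg microglia, beside 0.663%; at an unadjusted p under 0.05 there were 2 genes in each, beside 11.7% and 7.59% of all genes. Il4ra was at 24.5, 20.5 and 21.8 CPM in WT and at 26.3, 21.5 and 20.5 CPM in Fgg microglia at 7 d, all within the sham range. Socs3 was at 16.5, 17.4 and 12.5 CPM in WT and at 13.7 to 18.0 CPM in Fgg microglia, also inside the sham range. Il6ra alone of the called receptor genes stayed below every sham library at 7 d, at 86.1, 89.6 and 84.4 CPM in WT (log2 difference -0.61 ± 0.18, edgeR adjusted p = 0.0856) and at 102, 102 and 94.9 CPM in Fgg microglia (-0.41 ± 0.18, adjusted p = 0.611). Neither passed the test. Of genes listed around the 10, some differed from sham at 7 d. Among 6 other gp130 receptor chains, 1 was called lower in WT and none in Fgg microglia. Among 4 tested genes of the IL-4 and IL-13 ligand and receptor list, 1 was called higher in each genotype.

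The direct comparison of 7 d with 1 d showed the same return. In WT microglia 2 genes rose and 2 fell, beside 7.06% of all genes called (2.68% higher and 4.38% lower). Il10ra rose to 74.3, 56.9 and 56.8 CPM (log2 fold change 1.47 ± 0.24, edgeR adjusted p = 0.000405) and Il6ra rose by 1.04 ± 0.18 (adjusted p = 0.000705). Socs3 fell by 1.89 ± 0.50 (adjusted p = 0.0172) and Il4ra fell by 1.82 ± 0.23 (adjusted p = 4.52e-05). The Il6ra value sat close to the bar of 1 and dropped under it without WT library 2 or 3 at 1 d or WT library 1 at 7 d (0.92 to 0.98), and the adjusted p of Socs3 passed 0.05 without WT library 3 at 1 d (0.0523), or WT library 2 (0.0511) or 3 (0.0815) at 7 d. In Fgg microglia Il10ra rose by 1.08 ± 0.24 (adjusted p = 0.00811) and Il4ra fell (95% interval of the log2 fold change -1.99 to -1.01, adjusted p = 0.000473), beside 3.54% of all genes called (0.663% higher and 2.88% lower). The Il10ra call in Fgg microglia was lost without Fgg library 2 at 1 d (log2 fold change 0.96, adjusted p = 0.0679). Socs3 differed by -1.53 ± 0.49 in Fgg microglia (adjusted p = 0.0834), and the difference between the genotypes in this time course was not called for any of the 10 genes. Over all genes the same test called 0.

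**Figure D2:**
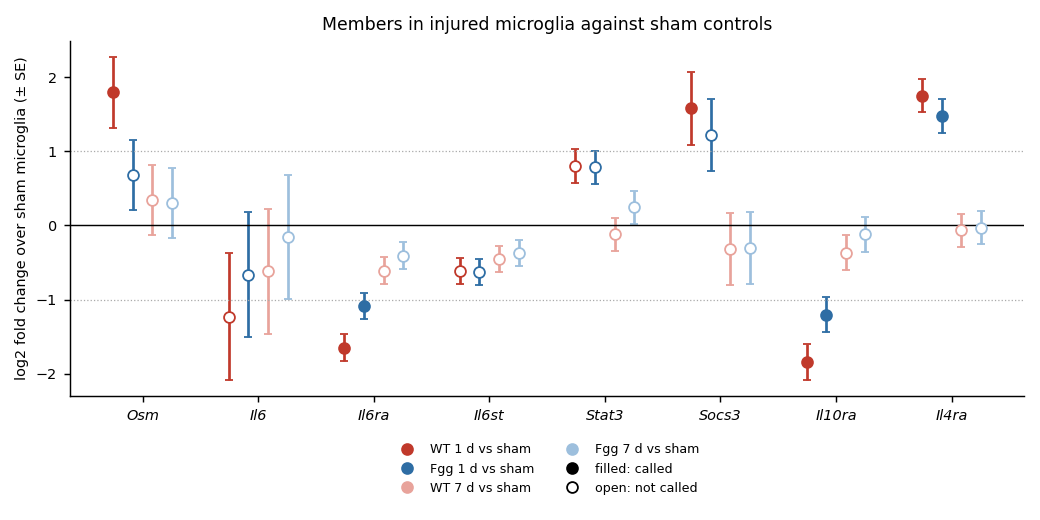
Log2 fold change over sham microglia (vertical axis, with SE bars) for 8 of the genes in WT and Fgg microglia at 1 d and 7 d. Filled points were called and open points were not, and dotted lines mark a log2 fold change of 1 in either direction. All 8 called points belong to 1 d.

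Infiltrating myeloid cells held more RNA of the gp130 ligands Osm and Lif than microglia and less RNA of gp130 itself. In WT mice at 1 d, 2 genes were higher and 1 lower in these cells than in microglia, beside 11.9% of all genes called (5.61% higher and 6.30% lower). In Fgg mice the counts were also 2 and 1, beside 16.7% of all genes called (6.96% higher and 9.70% lower). The called genes were Osm, Lif and Il6st in both genotypes.

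Osm was at 187, 117 and 118 CPM in WT and at 37.1, 49.6 and 123 CPM in Fgg infiltrating myeloid cells. Every one of these libraries stood above every microglia library of any group, the highest of which was 19.8 CPM. The log2 fold change over microglia of the same genotype at 1 d was 3.22 ± 0.50 in WT (edgeR adjusted p = 0.000123) and 3.32 ± 0.50 in Fgg mice (adjusted p = 7.92e-05). In the order of the 7 group means, the step from Fgg infiltrating myeloid cells (69.9 CPM) to WT microglia at 1 d (15.2 CPM) passed the test (log2 difference 2.21 ± 0.48, edgeR adjusted p = 0.00280), and no other neighbouring pair did.

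Lif was at 8.15, 5.48 and 3.29 CPM in WT and at 0.181, 3.43 and 2.13 CPM in Fgg infiltrating myeloid cells, with 4 counts in the lowest library. In microglia 12 of 15 libraries held 3 counts or fewer, and all 3 Fgg libraries at 7 d were at 0. The log2 fold change over microglia at 1 d was 4.96 ± 1.58 in WT (edgeR adjusted p = 0.0406) and 5.12 ± 1.62 in Fgg mice (adjusted p = 0.0312). Both calls rest on few counts in microglia and were lost when most single libraries were left out: in WT without microglia library 2 (adjusted p = 0.115) or 3 (0.112) or myeloid library 1 (0.104), 2 (0.0674) or 3 (0.0576), and in Fgg mice without microglia library 1 (0.105), 2 (0.0592) or 3 (0.0954) or myeloid library 2 (0.0769).

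Il6st was at 15.8 to 17.9 CPM in WT and at 16.7, 23.0 and 19.5 CPM in Fgg infiltrating myeloid cells, far below every microglia library. It was lower by 1.87 ± 0.18 on the log2 scale in WT (log2 fold change -1.87, edgeR adjusted p = 8.89e-07) and by 1.64 ± 0.18 in Fgg mice (-1.64, adjusted p = 2.70e-06). Lifr, the LIF receptor chain that pairs with gp130, was also lower, with a mean of 4.40 CPM against 24.7 CPM in WT microglia (log2 fold change -2.48 ± 0.23) and 7.49 against 28.6 CPM in Fgg mice (-1.93 ± 0.22). Il31ra was listed at 0 in the microglia of both genotypes at 1 d and at means of 0.380 and 0.597 CPM in the WT and Fgg myeloid cells. The remaining 4 of 6 tested gp130 receptor chains were not called in either genotype.

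Il6ra, Il10ra, Il4ra, Stat3 and Socs3 were not called between the cell types in either genotype. Socs3 was at 70.3, 47.6 and 57.1 CPM in WT infiltrating myeloid cells and at 82.7, 48.7 and 75.9 CPM in Fgg ones. Its log2 difference from WT microglia was 0.02 with a 95% interval from -1.01 to 1.05. Stat3 was at 102, 86.4 and 124 CPM in WT and at 99.9, 126 and 126 CPM in Fgg infiltrating myeloid cells, the highest group means of the study. The order of the group means of Stat3 had no neighbouring pair that passed the test.

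Il10 was detected unevenly in infiltrating myeloid cells. The WT libraries held 201, 4 and 10 counts (4.86, 0.211 and 0.451 CPM) and the Fgg libraries 1, 4 and 119 counts (0.0452, 0.0987 and 3.33 CPM). A single library of each genotype therefore carried nearly all of the signal. The same libraries, WT library 1 and Fgg library 3, had the highest Osm of their groups and the highest sum of the dissociation response genes, at 3869 CPM against 2797 and 2808 CPM in WT and at 3446 CPM against 2230 and 2158 CPM in Fgg mice; the part of that response in the result was not tested. Il10 was not called in any of the 11 comparisons made, none of which set infiltrating myeloid cells against sham microglia; in that pairing, against 1 count in all 3 sham libraries, the edgeR adjusted p of Il10 was 0.0247 for WT and 0.0357 for Fgg cells. Its log2 difference from WT microglia had a 95% interval from -0.90 to 6.90. Il6 was at 2.13, 2.00 and 3.70 CPM in WT and at 0.0904, 3.21 and 3.42 CPM in Fgg infiltrating myeloid cells, inside the range of the microglia libraries but for the library at 2 counts.

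**Figure D3:**
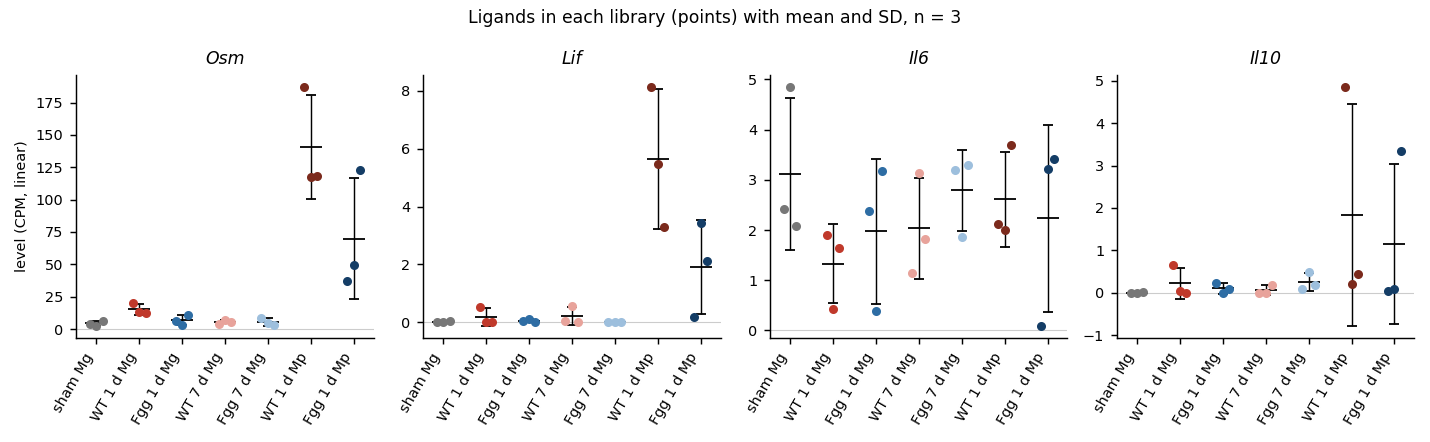
Levels of the 4 ligand genes (vertical axes, CPM on a linear scale, a different scale in each panel) in the 7 groups (Mg, microglia; Mp, infiltrating myeloid cells). Points are libraries and bars are the mean and SD of 3 libraries. Osm and Lif are highest in infiltrating myeloid cells, Il6 shows no order among groups, and Il10 is high in 1 library of each myeloid group.

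Between genotypes, none of the 10 genes was called, in microglia at 1 d (beside 0.0546% of all genes called), in microglia at 7 d (0.0378%) or in infiltrating myeloid cells at 1 d (0.453%). At an unadjusted p under 0.05 there were 3, 1 and 1 of the 10 genes, beside 5.07%, 3.34% and 11.5% of all genes; the gene at 7 d was Lif, with 1, 14 and 0 counts in WT and none in Fgg libraries. DESeq2, run as an alternative, also called none of them.

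In microglia at 1 d, Osm was at 6.56, 3.50 and 11.1 CPM in Fgg mice and at 19.8, 13.1 and 12.6 CPM in WT mice. The groups did not overlap, and the log2 difference was -1.11 ± 0.47 (edgeR adjusted p = 0.890, unadjusted p = 0.0281). Il6ra was higher in all 3 Fgg libraries than in any WT library, with a log2 difference of 0.56 ± 0.18 (edgeR adjusted p = 0.813, unadjusted p = 0.00528). Il10ra overlapped, with a log2 difference of 0.63 ± 0.24 (edgeR adjusted p = 0.890, unadjusted p = 0.0146). Groups did not overlap for 2 of the 10 genes, beside 8.72% of all genes. Il6ra is on chromosome 3, which also carries the mutated Fgg gene, 6.85 Mb away. Microglia marker sums were higher (6089 to 7804 against 3299 to 5322 CPM) and monocyte marker sums mostly lower (32.0 to 92.5 against 91.3 to 163 CPM) in the Fgg libraries. Neutrophil marker sums were 23.1 to 338 CPM in the Fgg and 123 to 775 CPM in the WT libraries. The part of these markers in the differences was not tested.

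Socs3, Stat3 and Il4ra were not called between genotypes in microglia. At 1 d the log2 difference between Fgg and WT mice was -0.36 for Socs3 (95% interval -1.40 to 0.67), -0.01 for Stat3 (-0.49 to 0.46) and -0.28 for Il4ra (-0.76 to 0.19). At 7 d these were 0.01 for Socs3 (-1.04 to 1.05), 0.36 for Stat3 (-0.12 to 0.84) and 0.04 for Il4ra (-0.44 to 0.51). The Socs3 intervals reached past the bar on the fold change, and differences beyond that bar, such as that of Osm, also went uncalled between genotypes. Between libraries of the same replicate number at 1 d, Osm, Socs3 and Il4ra were lower and Il6ra and Il10ra higher in the Fgg library in all 3 pairs. No label pairs these libraries, which are pools of different mice, and the pairing was taken from correlations in these same data. Thus 5 of the 10 genes differed 1 way in every pair, beside 27.1% of all genes, and none was called with the replicate number as a block. For Osm and Il6ra, whose groups did not overlap, any pairing of the libraries gives that outcome. The part of the marker sums given above was not tested.

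In infiltrating myeloid cells, Osm was at 37.1, 49.6 and 123 CPM in Fgg mice against 187, 117 and 118 CPM in WT mice, and the third Fgg library lay inside the WT range. The log2 difference was -1.01 ± 0.46 (edgeR adjusted p = 0.414). Without that library it was -1.70 (adjusted p = 0.0820), which passes the threshold between genotypes. Neutrophil marker sums were 2516 to 5723 CPM in Fgg and 3467 to 12997 CPM in WT infiltrating myeloid cells, and their part in the difference was not tested. For Socs3 the log2 difference was 0.24 (95% interval -0.79 to 1.28), for Stat3 0.17 (-0.30 to 0.65) and for Il4ra 0.23 (-0.25 to 0.70). The genotype difference of Osm did not differ between infiltrating myeloid cells and microglia by the test of the interaction (log2 difference 0.10 ± 0.64, edgeR adjusted p = 1.00), and none of the other 9 genes passed that test, beside 0.0462% of all genes.

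**Figure D4:**
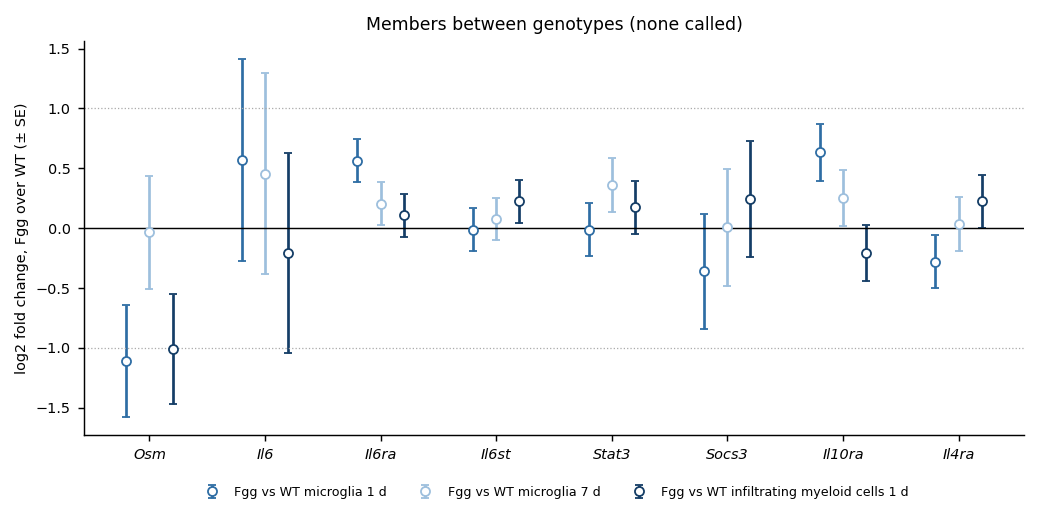
Log2 fold change of Fgg over WT mice (vertical axis, with SE bars) for 8 of the genes in microglia at 1 d and 7 d and in infiltrating myeloid cells at 1 d. Dotted lines mark a log2 fold change of 1 in either direction. No point was called, and Osm lies near -1 in both cell types at 1 d.

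Downstream of the receptors, a list of 24 genes known as STAT3 targets moved with injury at 1 d. In WT microglia 14 of the 24 rose and none fell, beside 8.05% of all genes called higher and 4.21% lower. The median log2 fold change of the 24 was 1.35 against 0 over all genes tested. Il1rn, the IL-1 receptor antagonist, rose from a mean of 2.40 to 195 CPM (log2 fold change 6.32 ± 0.61). Bcl3, an atypical IκB protein, rose from 3.01 to 23.8 CPM (2.97 ± 0.39), the kinase gene Pim1 from 2.74 to 15.4 CPM (2.49 ± 0.32) and Sbno2, a corepressor induced by IL-10, from 3.71 to 9.47 CPM (1.35 ± 0.23). Several of the listed genes are also known targets of other factors, such as NF-κB. In the same libraries the monocyte and macrophage markers summed to 91.3 to 163 CPM against 7.78 to 30.4 CPM in sham, with 3 of 10 called higher, and 5 of the 20 dissociation response genes were called higher; their part in the change of the listed genes was not tested.

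In Fgg microglia at 1 d, 7 of the 24 rose and none fell, with a median of 0.99. Of all genes 5.49% were called higher and 1.15% lower there. Bcl3 reached 22.1 CPM and Sbno2 9.48 CPM, close to the WT means, with log2 fold changes of 2.86 ± 0.39 and 1.35 ± 0.23. Il1rn reached 48.0 CPM (4.30 ± 0.56) and Pim1 8.66 CPM (1.65 ± 0.32). Between genotypes none of the 24 was called. Il1rn differed by -2.02 ± 0.50 between Fgg and WT microglia at 1 d (edgeR adjusted p = 0.449), a value named after it was seen. At 7 d, 3 of the 24 were called higher than sham in WT microglia (Saa3, Il1rn and Bcl3) and none in Fgg microglia. Of all genes, 2.02% and 0.663% were called in either direction. From 1 d to 7 d, 8 of the 24 fell in WT and 6 in Fgg microglia, and none rose. Of all genes, 4.38% fell in WT and 2.88% in Fgg microglia.

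In infiltrating myeloid cells at 1 d, 11 of the 24 were higher and 2 lower than in WT microglia, and 14 were higher and 2 lower in Fgg mice. Of all genes, 5.61% were called higher and 6.30% lower in WT, and 6.96% higher and 9.70% lower in Fgg mice. Pim1 was at a mean of 241 CPM in WT myeloid cells (log2 fold change 3.97 ± 0.33) and 141 CPM in Fgg ones (4.03 ± 0.34). Hif1a was at 183 CPM in WT (1.90 ± 0.18) and 167 CPM in Fgg infiltrating myeloid cells (2.09 ± 0.18). Socs3 was not called between the cell types: beside the WT difference given above, it had means of 69.1 CPM in Fgg myeloid cells and 44.8 CPM in Fgg microglia (log2 difference 0.62, 95% interval -0.41 to 1.66).

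**Figure D5:**
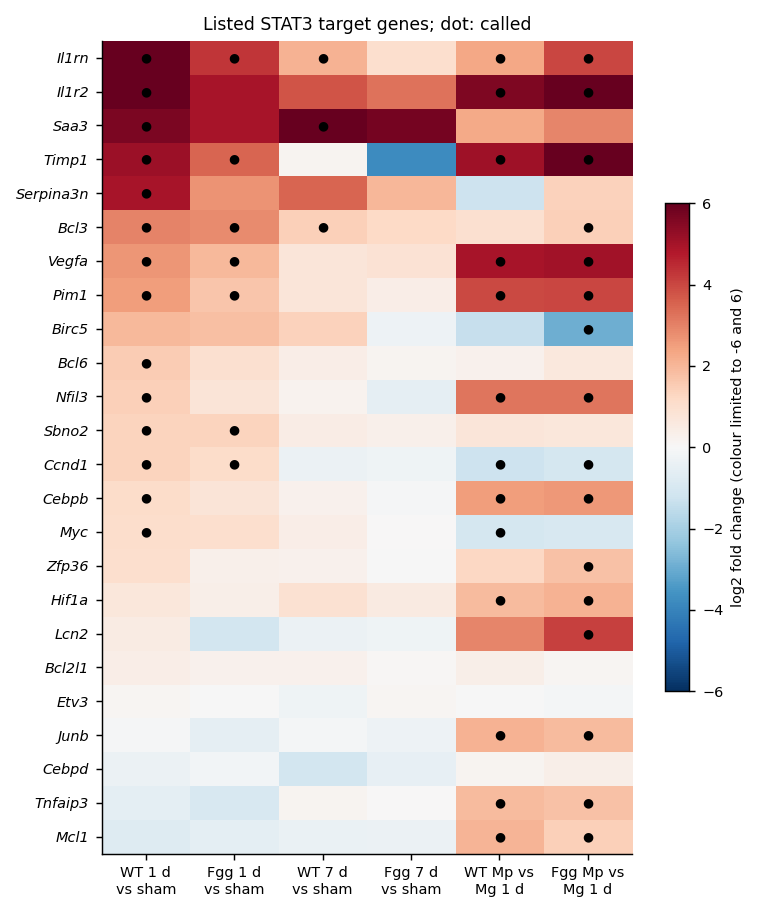
Log2 fold changes (colour, limited to 6 in either direction) of the 24 listed STAT3 target genes (rows, ordered by the first column) in 6 comparisons (columns; Mp, infiltrating myeloid cells; Mg, microglia). Dots mark called genes. In WT microglia at 1 d 14 genes are called higher, in Fgg microglia 7, and at 7 d 3 and none.

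In microglia at 1 d, none of 4 JAK kinase genes and none of 6 other gp130 receptor chains was called in WT microglia, and Jak3 alone was called in Fgg microglia, at a mean of 7.91 against 3.52 CPM in sham (log2 fold change 1.17 ± 0.35). Of 13 feedback inhibitors other than Socs3, Socs2 rose from 0.352 to 4.16 CPM in WT (3.53 ± 0.61) and to 2.45 CPM in Fgg microglia (2.76 ± 0.60), and Pias3 fell in WT microglia from 8.49 to 2.95 CPM (-1.53 ± 0.48). Of 8 other gp130 ligands 5 had enough counts to be tested, and 2 were called lower in WT microglia: Clcf1, cardiotrophin-like cytokine factor, fell from 10.8 to 1.80 CPM (-2.58 ± 0.58), and Cntf had a mean of 0.324 CPM in sham and was listed at 0 in WT microglia at 1 d. For Cntf the sham mean was not far above the floor of 0.0754 to 0.114 CPM in the sham libraries. No gene of these lists was called between genotypes.

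Of 6 other STAT genes, 1 was called against sham in WT microglia at 1 d and none in Fgg microglia, and at 7 d 3 were called in WT and 2 in Fgg microglia, all higher. Stat4, which carries IL-12 signals, rose in WT microglia from 0.171 CPM in sham to 1.71 CPM at 1 d (log2 fold change 3.28 ± 0.64) and 1.87 CPM at 7 d (edgeR adjusted p = 0.00471). Stat2, which carries type I interferon signals, was called against sham at 7 d and not at 1 d. It rose from 6.96 CPM in sham to 22.5 CPM in WT (log2 fold change 1.69 ± 0.33) and 21.4 CPM in Fgg microglia (1.62 ± 0.33). Within WT microglia it was also higher at 7 d than at 1 d (1.84 ± 0.33), while in Fgg microglia that step was not called. In infiltrating myeloid cells Jak2 was at 36.5 CPM in WT and 41.2 CPM in Fgg mice, higher than in microglia by log2 fold changes of 2.11 ± 0.21 and 2.40 ± 0.22, and Cish at 7.22 and 5.97 CPM (3.66 ± 0.82 and 4.52 ± 0.86).

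Genes known to respond to IL-4 were examined beside Il4ra. In WT microglia at 1 d 4 of 11 rose and none fell: Ccl22 from 0.409 to 22.8 CPM (log2 fold change 5.89 ± 0.71), Arg1 from 0.769 to 22.8 CPM (4.86 ± 0.76), Ccl17 from 0.546 to 9.64 CPM (4.19 ± 0.68) and Pdcd1lg2 from 0 in every sham library to 0.263 CPM. For Pdcd1lg2 that mean was not far above the floor of 0.109 to 0.117 CPM in these libraries. In Fgg microglia at 1 d 3 of the 11 rose and none fell. The median log2 fold change of the 11 was 0.53 in WT but -0.65 in Fgg microglia, against 0 over all genes tested. Of all genes, 8.05% were called higher in WT and 5.49% in Fgg microglia. The same list was called higher in infiltrating myeloid cells than in microglia for 9 of 11 genes in WT mice. In Fgg mice it was called higher for 11 of 11. Of all genes, 5.61% were called higher in WT and 6.96% in Fgg mice. Arg1 had a mean of 1981 CPM in infiltrating myeloid cells of WT and 1369 CPM in those of Fgg mice. The monocyte and macrophage markers given above move with these genes, and their part in the result was not tested. Of the IL-10 family, 3 of 9 listed ligands and receptors had enough counts to be tested, and none was called in any of the 11 comparisons.

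The genes whose pattern over the 7 groups was most like those of 4 of the genes were sought among protein-coding genes with a mean of at least 1 CPM, by the root mean square difference of centred log2 means. The nearest to Socs3 was Usp50 (0.13), at 9.30 CPM in sham, 30.4 CPM in WT and 26.4 CPM in Fgg microglia at 1 d, 9.13 and 10.0 CPM at 7 d and 35.7 and 37.8 CPM in WT and Fgg infiltrating myeloid cells. Next to Socs3 came Lrrc59 and Pfdn6, each at 0.14. The nearest to Osm were Il1f9 (0.22), an IL-1 family cytokine, Lamb3 (0.23) and Rab11fip1 (0.25), the nearest to Il4ra were Prep, Set and Psmd1 (each 0.11), and the nearest to Il10 were D16Ertd472e (0.11), Cry1 (0.15) and Myo1g (0.16). For Il10 the group means rest on single libraries, as given above.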

How the data were processed

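Reads were trimmed, aligned with STAR and quantified with salmon (nf-core/rnaseq, GRCm38), and the authors deposited estimated counts per gene, in which gene length is divided out and each library sums to its mapped reads, with no normalization between libraries. Per the labels, R 4.2.0 and DESeq2 1.36.0 were used by the submitters. Strand use in counting and the annotation release are not given in the sources used here. Groups came from the sample titles.

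Of 45706 identifiers, 45143 matched GENCODE M21, which gave symbols and GRCm38 coordinates. Counts were rounded to whole numbers, genes needed at least 5 counts summed over libraries, and edgeR 4.0.16 (R 4.3.3; TMM, glmQLFit, glmQLFTest) fitted 1 mean per group over all 21 libraries. The SE is the absolute log2 fold change over the square root of F, and the common biological coefficient of variation was 0.643. Intervals of 95% use that SE. The scripts were tested on simulated data. Thresholds followed the study, except that its volcano plot of WT microglia at 1 d against sham used a log2 bar of 1.5. DESeq2 1.42.0, other scaling, filters, fold bars, subsets of libraries and leaving out each library served as alternatives. P-values measure the spread between pools of 2 brains. Of the comparisons made, only WT and Fgg microglia at 1 d had every same-number correlation over 0.1 (lowest 0.125), by the data and not by the labels. There Fgg library 2 and WT library 3, of unlike number, had a correlation of 0.165.

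The 10 genes, the pathway and marker lists and the tests were chosen with earlier results of these data known. Named were the 10 genes, Fgg, listed genes past the threshold (up to 4 per list and comparison by adjusted p), and the 3 most alike genes (pseudocount 0.5 CPM) for Socs3, Osm, Il10 and Il4ra. Promoter windows are RefSeq's. 1 listed gene is not reported here.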

Additional observations from a re-analysis of the deposited data

How the results depend on the processing

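The counts of the 10 genes called moved by no more than 1.5 times under DESeq2, other size factors, both count filters, protein-coding genes alone, subsets of libraries and the replicate block in all 11 comparisons. The fold bar mattered more: with a log2 bar of 1.5, Fgg microglia at 1 d against sham had 0 genes, WT microglia at 7 d against 1 d 2 and Fgg microglia at 7 d against 1 d 0, and with no bar Fgg microglia at 1 d against sham had 5, adding Il6st and Stat3. Leaving out single libraries gave 3 to 6 genes for WT microglia at 1 d against sham (3 without sham library 2), 2 to 5 for WT microglia at 7 d against 1 d (2 without WT library 3 at 1 d), 1 to 2 for Fgg microglia at 7 d against 1 d (1 without Fgg library 2 at 1 d), and 0 to 1 between genotypes in infiltrating myeloid cells, where Osm was called without Fgg library 3.

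Of single genes, Socs3 in WT microglia at 1 d was not called against sham when those 6 libraries were fitted alone (edgeR adjusted p = 0.143). Osm fell from 1 d to 7 d in WT microglia under DESeq2 (log2 fold change -1.37, adjusted p = 0.0219) and in 4 other alternatives, Stat3 was called lower at 7 d than at 1 d in WT microglia without WT library 1 at 1 d (-1.14) or at 7 d (-1.07), and Socs3 fell in Fgg microglia under DESeq2 (-1.43, adjusted p = 0.0315) and with the compared groups alone; the cause was not tested. Uncalled differences near 0 changed sign. Between genotypes at 7 d, Socs3 was at -0.0091 with other size factors, -0.0093 under DESeq2, -0.0077 under the stricter filter and -0.0012 with protein-coding genes alone, and at -0.12 to 0.10 without single libraries; Osm was at -0.57 to 0.25 and Il4ra at -0.080 to 0.12. Between genotypes at 1 d, Stat3 in microglia was at -0.24 to 0.16 without single libraries, and in infiltrating myeloid cells Il10 was at -4.57 to 1.80 and Il10ra at -0.42 to 0.0044. The Osm interaction was at -0.59 to 0.57. Socs3 between WT cell types was at -0.14 to 0.19 without single libraries and at -0.022 with the replicate block. The block on replicate numbers changed no call count of the 10 genes. Every same-number correlation was over 0.1 only between genotypes in microglia at 1 d. Between WT infiltrating myeloid cells and WT microglia, same-number correlations had a mean of 0.114 and the others a mean of -0.058. The labels do not say whether same-numbered libraries of the cell types came from the same brains, and the cell types were tested unpaired. In Fgg infiltrating myeloid cells against microglia the median log2 fold change of all genes was -0.13 with TMM and -0.0076 with DESeq2 size factors, a shift far smaller than the 3 calls there.

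With 3 libraries a group, Lif, Il10 and Il6 rest on few counts, and their intervals span several log2 units.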
